A study of Mus musculus with 2 samples.

Results

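The cells described here are growth-cartilage-type chondrocytes of the mouse knee, 249 of the 6243 cells sequenced. They are 170 cells of the control library and 79 cells of the mutant library, chosen from the 833 cells that carry the authors' mark (501 control and 332 mutant cells above 0 for Sox9 and Col2a1). Cells were released from the knees of female mice at 1 month of age, sorted by flow cytometry as living and negative for CD31, Ter119 and CD45, and sequenced singly from the 3′ ends of their transcripts. The control library was made from Stat3fl/fl mice, in which both Stat3 alleles are flanked by loxP sites and no Cre is present. The mutant library was made from Acan-Cre+/Cre;Stat3fl/fl mice, which carry the same floxed alleles. According to the methods this Cre is a tamoxifen-dependent CreERT2 inserted into 1 allele of Acan, so it is driven where aggrecan is expressed and the driver takes up 1 Acan locus. Pups of this cross received tamoxifen by gavage on postnatal days 2 and 3. The background was C57BL/6, controls were littermates, and 2 to 3 mice were pooled into 1 library per genotype. The spread between mice was therefore not measured, no difference below has a replicate check, and no test was made. Each range printed after a share is its exact 95% binomial interval (Clopper-Pearson) and covers counting error only.

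Growth cartilage is the cartilage of the growth plate, where long bones lengthen. Its chondrocytes pass from a resting reserve into columns of dividing, flattened cells, lay down a matrix of collagen II and aggrecan, and then enlarge into prehypertrophic and hypertrophic cells that express Ihh and Col10a1. Articular cartilage covers the joint surface, stays as cartilage, and secretes other products such as lubricin, which is encoded by Prg4. STAT3 is a transcription factor activated downstream of gp130, the receptor subunit shared by the IL-6 family of cytokines.

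The members were selected on the deposited expression values themselves, log2(CPM + 1) per cell, where CPM is counts per 1000000 in that cell. G is the mean over 7 growth cartilage genes (Matn1, Epyc, Krt16, Plet1, Il17b, Ppa1 and Sox11) and A the mean over 7 articular genes (Msmp, Cytl1, Crispld1, Rbp4, Frzb, Chil1 and Wif1). A cell was kept when G exceeded A and fewer than 2 of 5 hypertrophic genes (Ihh, Col10a1, Panx3, Pth1r and Mef2c) were above 0. The levels of these genes are therefore a description and no finding. Cells with A above G and fewer than 2 hypertrophic genes, 171 control and 131 mutant cells, are called articular-type below. A further 136 control and 97 mutant cells had 2 or more hypertrophic genes, of which 111 and 54 had G above A. In the remaining 24 control and 25 mutant cells G and A were equal. No barcode of a member occurred in the other library, while 2 barcodes were shared between the libraries as a whole.

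**Figure D1:**
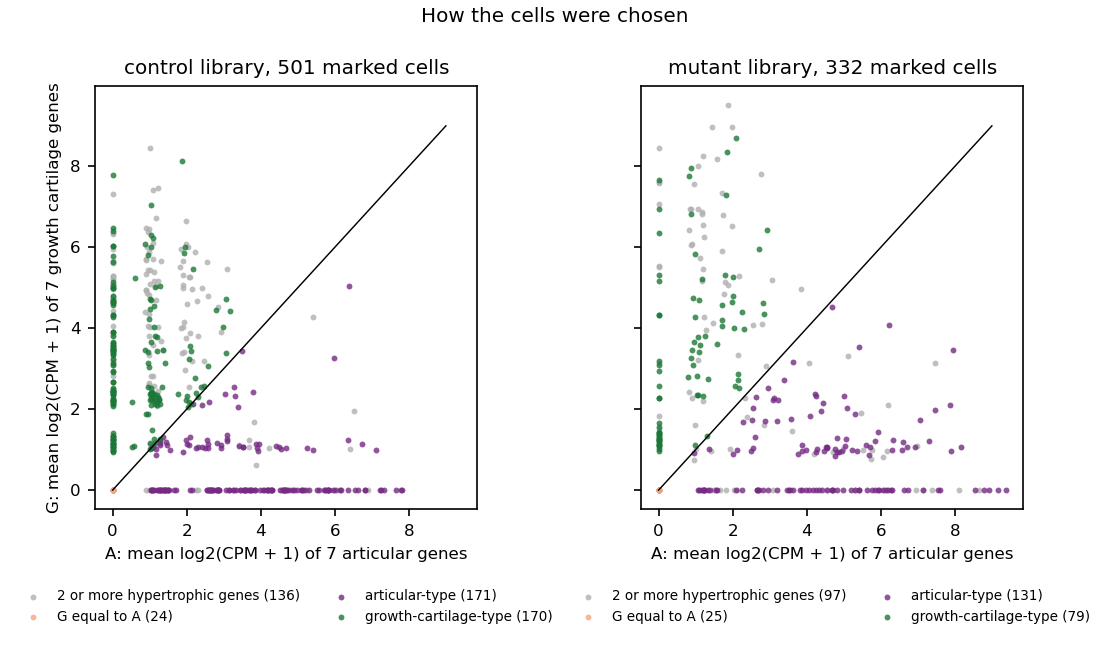
Score A (x axis) and score G (y axis), both mean log2(CPM + 1) over 7 genes, for each marked cell of the control (left) and mutant (right) library, coloured by class, with the line G = A. The 170 and 79 growth-cartilage-type cells lie above the line, and 84 and 33 of them sit at A = 0.

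The median of G was 2.55 in control and 3.27 in mutant members, and the median of A was 0.532 and 0.926. The cut does not fall in a gap. In the control library 18 members lay less than 0.5 above the line and 14 articular-type cells less than 0.5 below it, and in the mutant library the numbers were 3 and 6. The 2 control cells nearest the line had G minus A of 0.00178 inside and -0.0189 outside, and the 2 mutant cells 0.0159 and -0.014. In 30 of 170 control members and 22 of 79 mutant members, only 1 of the 7 growth cartilage genes was above 0, so membership then rested on a single transcript species.

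The choosing genes themselves were unevenly spread over the members. In GRCm38 the 5 given as markers of the cell type lie on chromosome 4 (Matn1, 130944385 to 130955475), chromosome 10 (Epyc, 97644068 to 97682454), chromosome 11 (Krt16, 100246091 to 100248902), chromosome 9 (Plet1, 50494525 to 50505482) and chromosome 12 (Sox11, 27334264 to 27342574). Epyc, the small proteoglycan epiphycan of growth cartilage, was the most frequent in the control library, above 0 in 79.4% of members (72.5% to 85.2%), against 51.9% (40.4% to 63.3%) in the mutant library. Its transcripts, summed over the members, came to 340.2 CPM and 261 CPM. Matn1, which encodes the cartilage matrix protein matrilin-1, was seen in 22.4% of control members and 27.8% of mutant members (70.35 and 93.7 CPM). Sox11, a transcription factor of progenitor cells, was above 0 in 50.6% and 45.6% (195 and 139 CPM). Krt16, an epithelial keratin, was at 81.5 and 259 CPM, and 3 cells supplied 58.7% of its mutant transcripts. Plet1, a surface protein better known from epithelial progenitors, was at 79.4 and 254 CPM. Il17b, a cytokine, was at 75 and 148 CPM. Ppa1, a pyrophosphatase found in most cells, was at 192 and 570 CPM, but it also stood at 1362 and 1895 CPM in the cells with 2 or more hypertrophic genes.

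Free RNA can place a transcript in a cell that does not express it, so the same shares were read in cells above 0 for neither Sox9 nor Col2a1 (2705 control and 474 mutant cells, median 4960 and 2741 estimated UMIs, or unique molecular identifiers). There Matn1 was above 0 in 0.222% and 0%, Epyc in 0.887% and 0.844%, Krt16 in 0.0739% and 0%, Plet1 in 0.111% and 0.633%, and Sox11 in 3.14% and 2.11%. Ppa1 was above 0 in 20.9% and 17.5% of them, which leaves it the least selective of the 7. Because these cells had to be at 0 for Col2a1, an abundant cartilage transcript, they may be those with the least free cartilage RNA. The shares therefore cannot measure the background of each gene in the members. Since the rule selected on these genes, the shares also lend the members' name no support. At least 2 of the 5 marker genes were seen in 61.8% of control and 59.5% of mutant members, and none in 6 and 10 cells. After thinning every cell to 2000 UMIs, which left 169 control and 67 mutant members, Epyc was above 0 in 47.3% and 38.8% and Plet1 in 10.7% and 31.3%.

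Depth differed between the libraries. Members had a median of 6165 estimated UMIs and 2226 genes in the control and 9541 UMIs and 2665 genes in the mutant library. Cells above 5% mitochondrial counts, the limit named in the study's methods, made up 1.76% of control members (3 cells, 0.365% to 5.07%) and 26.6% of mutant members (21 cells, 17.3% to 37.7%). Growth-cartilage-type cells were 33.9% of the marked control cells (170 of 501, 29.8% to 38.3%) and 23.8% of the marked mutant cells (79 of 332, 19.3% to 28.8%). The difference was -10.1 percentage points with a Newcombe interval from -16.2 to -3.83 points. The mark leaves out every cell with a globin transcript: all 512 unmarked control cells above 0 for Sox9 and Col2a1 had one, and 112 of them met the rule on G, A and hypertrophic genes. With marked and unmarked cells together the shares were 27.8% and 23.6%, and the difference shrank to -4.26 points, near the inner end of that interval.

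Cartilage matrix genes outside the rule were used to check that the members were chondrocytes. Of 18 such genes, which include Acan, Col9a1, Col9a2, Col9a3, Hapln1, Snorc and Matn3, the median control member had 16 above 0 and no control member fewer than 10. The median mutant member also had 16. However, 16 of 79 mutant members (20.3%, 12.0% to 30.8%) had at most 6 of the 18, while the next mutant member had 10. Control members had 0 of 170 such cells, which allows a share of up to 2.15%. Among the 16 mutant cells, 12 had just 1 of the 7 growth cartilage genes above 0, 4 held fewer than 2000 UMIs and 2 exceeded 5% mitochondrial counts, and their median depth was 3358 UMIs. Marked cells with so few matrix genes were not restricted to the members: the articular-type class held 10 of 171 control and 16 of 131 mutant cells of this kind, and the class with 2 or more hypertrophic genes 2 of 136 and 20 of 97. For these 16 cells the data go against the name chondrocyte, and the gene counts and some ratios of the genotype comparison below are also given without them. The cutoff of 6 genes was chosen after the values were seen.

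**Figure D2:**
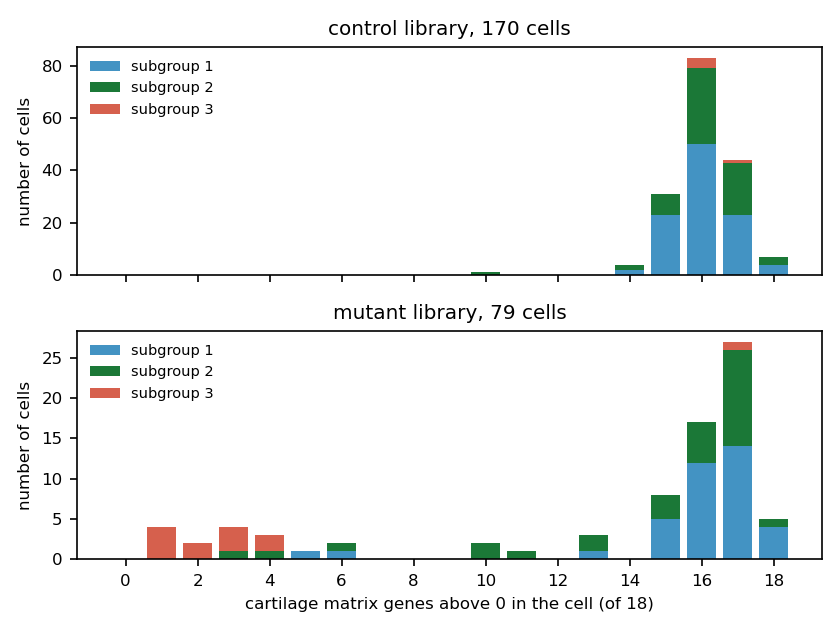
Number of the 18 cartilage matrix genes above 0 (x axis) against the number of growth-cartilage-type cells (y axis) in the control (top) and mutant (bottom) library, stacked by subgroup. Control members begin at 10 genes, while 16 mutant members have at most 6, of which 11 belong to subgroup 3.

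Markers of blood and vessel cells were near 0 in the members, while those of some connective tissue types were not. The sort had removed blood and vessel cells by their surface markers, and the mark leaves out every cell with a globin transcript. The low values of blood and vessel markers were therefore largely set beforehand and are no check of what the members are. The 6 leukocyte markers summed to 1.68 CPM in control and 3.9 CPM in mutant members, with 5 of 6 at 0 in both, including Ptprc. The 5 endothelial markers summed to 4.95 and 3.71 CPM, with 3 at 0 in each. The 6 erythroid markers summed to 1.88 and 0 CPM, the 5 muscle markers to 38.8 and 22.8 CPM and the 5 tenocyte markers to 23.5 and 37.5 CPM. The 8 osteoblast markers summed to 235 and 213 CPM, most of it Col1a1 (148 and 145 CPM), of which 3 cells held 86.2% and 60.4%. The 5 mural markers summed to 535 and 437.5 CPM, nearly all of it Cspg4 (487 and 380.5 CPM). Like the tenocyte sum, the sums of the fibroblast and marrow stromal markers were higher in the mutant members. The 6 fibroblast markers, of which 1 was at 0 in each library, summed to 285 and 369 CPM, and the 4 marrow stromal markers to 4.62 and 181 CPM, 109 CPM of it the chemokine Cxcl12. Cxcl12 had the highest ratio of all genes compared between the genotypes (log2 ratio 5.50), with 3 cells holding 83% of its mutant transcripts, and was at 3.39 without subgroup 3. What part these transcripts have in the genotype comparison was not tested beyond leaving out the cells that carry most of them.

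The members were divided by k-means clustering into 3 subgroups, with the rule genes left out and the mean of each library removed. Genes that lead a subgroup were mostly used to form it, so their levels describe it and are not tested. Subgroup 1 held 102 control and 38 mutant members (60% and 48.1%) and was led by Hbegf, Meg3, Ahnak, Fn1, Igf1, Emp1 and Srxn1. Hbegf, a growth factor that binds the EGF receptor, stood at 2991 CPM in subgroup 1 and 1313 CPM in subgroup 2 of the control library, and at 3059 and 1801 CPM in the mutant library. Fn1, the matrix protein fibronectin, was at 4282 and 1815 CPM in control cells and at 2697 and 1523 CPM in mutant cells of subgroups 1 and 2. Hk2, the first enzyme of glycolysis, was at 1004 and 411 CPM in control and 372 and 229.8 CPM in mutant cells. Sox11 was also higher in subgroup 1, at 245.5 against 115 CPM and 164 against 98.5 CPM.

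Subgroup 2 held 63 control and 29 mutant members (37.1% and 36.7%) and was led by Jun, Prelp, Gm42418, Mfge8, Slc26a2, Serpinh1, Hapln1 and Ldha, with the rule genes Ppa1, Matn1 and Epyc, which took no part in the clustering, also among its leading genes. Gm42418 and AY036118, both on that list, overlap ribosomal RNA sequence and can reflect RNA quality. Gm42418 was at 16220 against 9332 CPM in subgroups 2 and 1 of the control library and at 22030 against 7458 CPM in those of the mutant library, and AY036118 at 926.5 against 157.5 CPM and 243 against 153 CPM. What part RNA quality has in this subgroup was not tested. Matn1 stood at 165 CPM there against 20.5 CPM in subgroup 1 of the control library, and at 213.5 against 59.8 CPM in the mutant library. Fgfr3, the receptor that restrains growth plate chondrocytes, was at 289 against 114 CPM and at 208 against 110 CPM. Slc26a2, the sulfate transporter that feeds proteoglycan sulfation, was at 542 against 233 CPM and at 219 against 89.8 CPM. Prelp, a small proteoglycan, was at 2750 against 1252 CPM in the control library, but at 1281 against 1053 CPM in the mutant library. The hedgehog receptor and target Ptch1 was at 260 against 112 CPM in control cells and 98.6 against 119.9 CPM in mutant cells, so its order differed between the libraries. Exactly 1 hypertrophic gene was present in 54% of control cells of subgroup 2 and 33.3% of subgroup 1, and in 34.5% and 42.1% of mutant cells. Mutant cells of subgroup 2 were shallower than those of subgroup 1 (median 5018 against 14110 UMIs) and had a higher mitochondrial share (6.67% against 3.5%), which was not the case for depth in control cells (6184 and 6105 UMIs).

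Subgroup 3 was small, with 5 control members (2.94%, 0.962% to 6.73%) and 12 mutant members (15.2%, 8.1% to 25%). It was led by Tmsb4x, Gsn, Lgals1, S100a6, Dcn, Col1a1 and Col3a1, genes abundant in fibrous connective tissue. Dcn, the collagen-binding proteoglycan decorin, was at 842 CPM in these control cells and 5017 CPM in these mutant cells, against 282 and 269 CPM in subgroup 1. The control cells of subgroup 3 kept their cartilage transcripts, with Acan at 3362 CPM and Snorc at 3945 CPM at a median of 11700 UMIs. The mutant cells of subgroup 3 had Acan at 409.5 CPM, Snorc at 75.2 CPM and Col2a1 at 3211 CPM, at a median of 4248 UMIs. At least 2 of the 6 fibroblast markers were above 0 in 4 of the 5 control and 5 of the 12 mutant cells. Subgroup 3 held 11 of the 16 mutant members with few matrix genes.

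**Figure D3:**
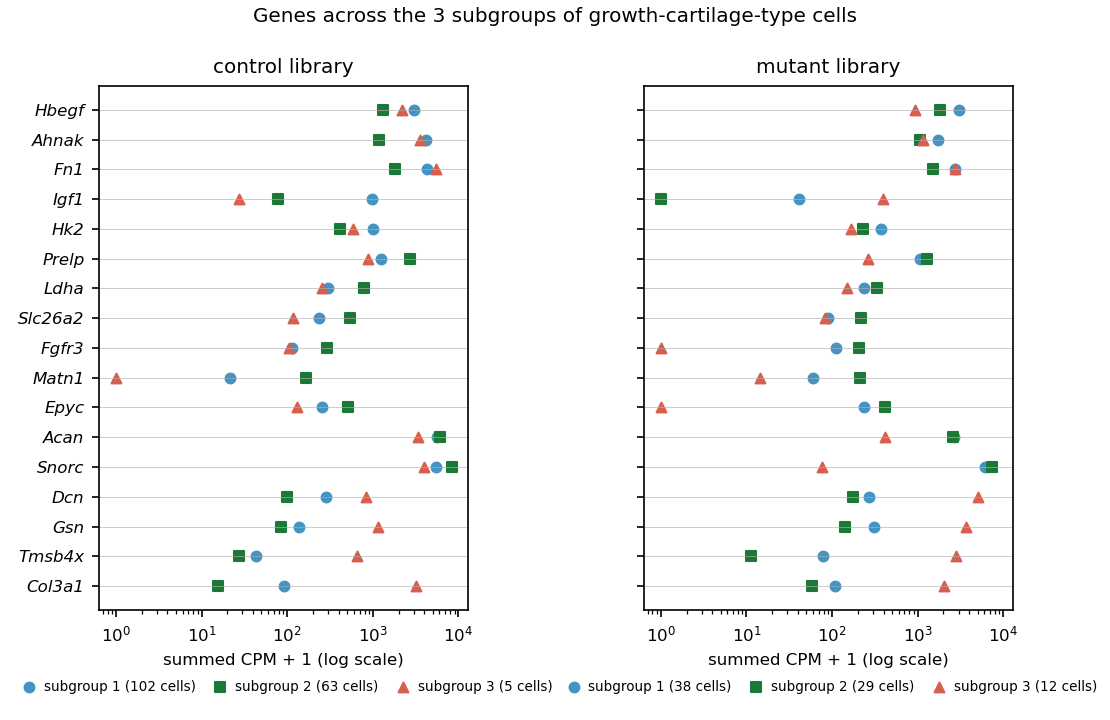
Summed CPM + 1 on a log scale (x axis) of 17 genes (y axis) in the 3 subgroups of growth-cartilage-type cells of the control (left) and mutant (right) library, 1 point per subgroup. Dcn, Gsn, Tmsb4x and Col3a1 are highest in subgroup 3, whose mutant cells have Snorc at 75.2 CPM against 6076 CPM in subgroup 1.

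Clustering of all marked cells without the 25 genes used to mark or choose cells was used to ask whether other genes separate the members from the remaining marked cells. In the control library 122 of 170 members fell into 1 of 6 clusters, together with 34 articular-type cells and 28 cells with 2 or more hypertrophic genes, and 38 into a second cluster that also held 86 of the 136 cells with 2 or more hypertrophic genes but 2 articular-type cells. In the mutant library 48 of 79 members shared a cluster with 20 articular-type cells and 39 cells with 2 or more hypertrophic genes. A further 18 fell into a cluster with 31 articular-type cells and 23 cells with 2 or more hypertrophic genes, and 11 into a cluster led by Tmsb4x, Dcn and Gsn. The principal component most like G minus A had an absolute r with it of 0.777 (control library) and 0.714 (mutant library). These are correlations over cells of 1 library, which share depth and free RNA, and are given as a description.

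The second comparison set growth-cartilage-type cells against articular-type cells of the same library, for which genotype and pool are shared. Estimated UMIs were summed over the cells of each class and scaled to CPM, and a gene was called when log2((growth CPM + 1)/(articular CPM + 1)) was at least 1 in size in both libraries. Since genes that vary with the rule genes had to differ, the result is a description. Of 2369 genes compared in both libraries, 38 (1.6%) were at least 2-fold higher in growth-cartilage-type cells of both libraries and 64 (2.7%) at least 2-fold lower, and 0 were 2-fold apart in opposite directions. Taken singly, the control library had 69 higher and 118 lower genes, and the mutant library 85 and 104.

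Cartilage matrix genes that passed 2-fold in both libraries were all higher in the members. Of 17 compared, 5 were at least 2-fold higher in both libraries, against 1.6% of all genes compared, and 0 lower. The median log2 ratio was 0.59 (control) and 0.81 (mutant), against 0.08 and -0.00 over all genes. The 5 were Acan, Col9a2, Col9a3, Hapln1 and Matn3. Acan, the core protein of the main cartilage proteoglycan, stood at 5664 CPM in members and 2758 CPM in articular-type cells of the control library, and at 2451 and 1129 CPM in the mutant library. Hapln1, the link protein that fixes aggrecan to hyaluronan, was at 2958 and 1363 CPM and at 2816 and 1187 CPM. Matn3, a matrilin of growing cartilage (chromosome 12, from 8947929 to 8972028, GRCm38), was at 687 and 255.5 CPM and at 1052 and 268 CPM. Chad, a leucine-rich matrix protein, went the other way, with log2 ratios of -2.03 and -0.96. Of 7 genes of glycosaminoglycan synthesis and sulfation compared, 1 was 2-fold higher in both libraries, against 1.6% of all genes, and the medians were 0.92 and 0.82. This was Chst11, a chondroitin sulfotransferase, at 769 CPM in members and 285.5 CPM in articular-type control cells, and at 632 and 253 CPM in those of the mutant library.

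Over all genes compared with a mean of at least 100 CPM, the 10 with the highest ratios in members of both libraries were Fxyd2, C1qtnf3, Dusp5, Micall1, Pcolce2, Matn3, Srxn1, Chst11, Tm4sf1 and Ccnd1, ordered by the smaller of the 2 ratios. Matn3, Chst11 and Ccnd1 among them also belong to the gene lists. Fxyd2, a regulator of the sodium pump (chromosome 9, from 45399669 to 45410278), was at 226 CPM against 23.5 CPM in control cells and at 469 against 62.7 CPM in mutant cells. It was higher still in the cells with 2 or more hypertrophic genes, at 552 and 682 CPM. C1qtnf3, a secreted protein of growth cartilage also called CORS26, was at 1804 against 444 CPM and at 1452 against 144 CPM (chromosome 15, from 10952332 to 10980150). Unlike Fxyd2 it was lower in the cells with 2 or more hypertrophic genes, at 1045 and 670 CPM. Ccnd1, the cyclin that drives entry into the cell cycle, was at 242 against 40.4 CPM and at 187 against 78.5 CPM. Dusp5, a phosphatase that acts on ERK, was at 212 against 57.1 CPM and at 212 against 63.7 CPM. Srxn1, an enzyme of the oxidative stress response, was at 416 against 147 CPM and at 842 against 315 CPM. All 10 genes kept log2 ratios above 0 under every alternative tried, and Chst11, Dusp5 and Tm4sf1 dropped below 2-fold under at least 1.

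**Figure D4:**
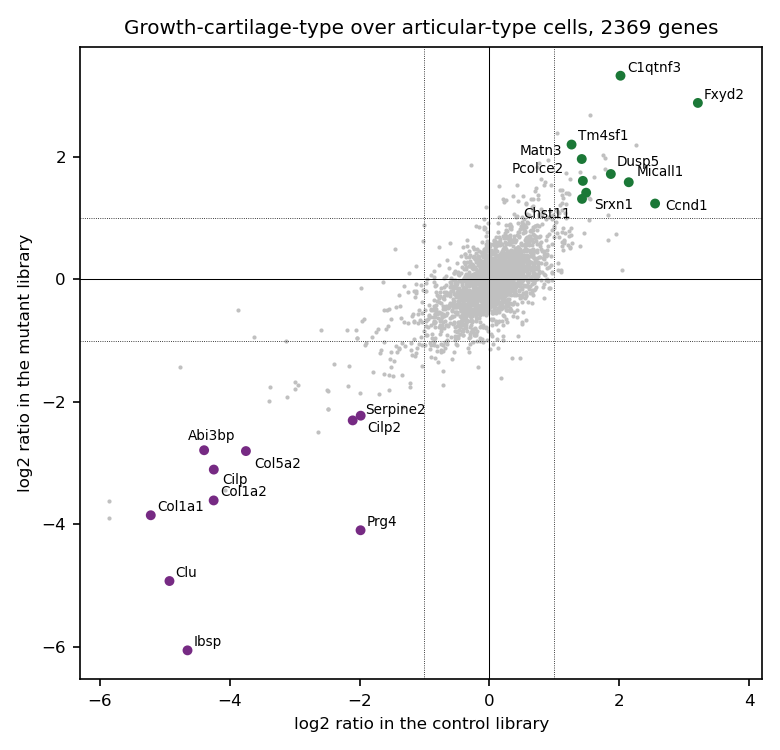
Log2 ratio of summed CPM, growth-cartilage-type over articular-type cells, in the control library (x axis) and the mutant library (y axis) for 2369 genes, with dotted lines at 2-fold. The 10 genes named as higher (green) and the 10 named as lower (purple) lie beyond 2-fold in both libraries, with Fxyd2 at 3.21 and 2.88 and Clu at -4.93 and -4.92.

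Genes of the joint surface stood lower in the members. Of 10 genes of the superficial and articular list compared, 8 were at least 2-fold lower in both libraries and 0 higher, with medians of -2.55 and -2.51. Over all genes compared 2.7% were at least 2-fold lower in both libraries, and the medians were 0.08 and -0.00. Clu, the extracellular chaperone clusterin, was at 66 CPM against 2041 CPM in control cells and 74.35 against 2286 CPM in mutant cells. Prg4, which encodes lubricin, was at 1546 against 6122 CPM and 319 against 5474 CPM. In the members 3 cells held 99.55% of the control and 95.6% of the mutant Prg4 transcripts, and Prg4 was above 0 in 10 control and 17 mutant cells, so it was all but absent from most members. The remaining genes named as lower were Abi3bp, Cilp, Cilp2, Col1a1, Col1a2, Col5a2, Ibsp and Serpine2. Of these, Abi3bp, Cilp, Col1a1, Ibsp and Serpine2 had over 50% of their transcripts in 3 member cells of at least 1 library. Articular-type cells also contained bone and fibrous tissue transcripts, with Col1a1 at 5552 and 2106 CPM and Ibsp, a bone sialoprotein, at 601 and 1090 CPM, and what part these have in the contrast was not tested.

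Genes listed as antagonists and binding proteins of growth factors were lower too. Of 6 compared, 4 were at least 2-fold lower in both libraries, against 2.7% of all genes compared. They were Gas1, Igfbp4, Igfbp6 and Igfbp7. Igfbp7, which binds insulin-like growth factors, was at 496 against 1422 CPM in control cells and 721 against 1634 CPM in mutant cells. Among 9 growth factor receptors, Fgfr2 (log2 ratios -1.67 and -1.15) and Tgfbr1 (-1.35 and -1.04) were 2-fold lower in both libraries and 0 were higher. Fgfr3 had ratios of 0.65 and 0.42. Of 7 genes associated with the resting zone, 5 were lower and 1 higher in both libraries, with medians of -0.14 (control) and -1.13 (mutant). Spon1 and Gas1, which is on both lists, were at least 2-fold lower in both. Pthlh, the PTHrP gene, had ratios of -0.14 and -0.96. The members showed no 2-fold difference in both libraries for any of 12 glycolysis and hypoxia genes, 15 secretory pathway genes or 7 G2/M genes compared.

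The third comparison asked how growth-cartilage-type cells of the mutant library differed from those of the control library. The targeted gene was examined first. Stat3 (chromosome 11, from 100885098 to 100939540, minus strand of GRCm38) was at 143 CPM in control and 103 CPM in mutant members, a log2 ratio of -0.46. It was above 0 in 58.8% of control members (51.0% to 66.3%) and 46.8% of mutant members (35.5% to 58.4%), and the intervals overlap. After thinning to 2000 UMIs the shares were 25.4% and 19.4%. Without the cells of subgroup 3, where mutant Stat3 stood at 265 CPM, the log2 ratio was -0.70, and without the members with at most 6 matrix genes it was -0.61. At an equal depth of 2000 UMIs per cell the log2 ratio was 0.01 when cells were thinned after the rule was applied. It was 0.15 when they were thinned before it. The thinned shares above stayed lower in mutant members, so the measures differ at equal depth. With every cell weighted equally and no thinning the log2 ratio was -0.36. Because reads come from the 3′ end, a transcript that lacks the floxed exons may still be counted as Stat3.

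Across 2685 genes compared, 121 (4.51%) were at least 2-fold higher in mutant members and 174 (6.48%) at least 2-fold lower, and the median log2 ratio was -0.14. Removing this shift by median-of-ratios scaling turned the split round, to 186 higher and 108 lower genes. All ratios below are therefore best read against -0.14, and all counts of genes past 2-fold against 4.51% higher and 6.48% lower. Without the cells of subgroup 3 there were 109 higher and 184 lower genes, of which 97 and 154 were among those called with all members. Leaving out the members with at most 6 matrix genes gave 112 higher and 193 lower genes.

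Igf1 (chromosome 10, from 87858265 to 87937042), the growth factor that acts on growth plate chondrocytes downstream of growth hormone, was the gene with the lowest ratio. It stood at 607 CPM in control and 59.6 CPM in mutant members, a log2 ratio of -3.33, and was above 0 in 50% (42.2% to 57.8%) and 21.5% (13.1% to 32.2%) of them. The upper quartile over single cells was 745 CPM in control members and 0 in mutant members. Most of the difference lay in subgroup 1, with Igf1 at 970 CPM in control and 40.6 CPM in mutant cells, while control cells of subgroup 2 had 77.5 CPM. The mutant cells of subgroup 3 had 397 CPM, and without subgroup 3 the ratio was -4.38. Igf1 was also lower in the mutant articular-type cells (-3.17) and in the cells with 2 or more hypertrophic genes (-2.66). Its ratio in the unmarked cells of the knee was 0.55, over a mixture of cells not matched between the libraries. The receptor Igf1r had a ratio of -0.36 and Igf2 of -0.63. Igf1 was the 1 gene past 2-fold among 6 growth factors compared, whose median was 0.14.

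The gp130 pathway was examined as a list, and 9 of its genes were compared. One receptor gene and one ligand gene passed 2-fold, in opposite directions, and the median was -0.46. Osmr (chromosome 15, from 6813577 to 6874969), which encodes the receptor subunit for oncostatin M, was at 144 CPM in control and 25.5 CPM in mutant members (-2.45), above 0 in 48.2% and 15.2%. Mutant Osmr rested on few cells, 3 of which held 52.7% of it. Il11, a cytokine that signals through gp130, was at 63.2 CPM in control and 545 CPM in mutant members (3.09), above 0 in 19.4% (13.8% to 26.2%) and 59.5% (47.9% to 70.4%). After thinning these shares were 6.51% and 46.3%. Il11 (chromosome 7, from 4772373 to 4782859) was higher in both large subgroups, at 74.2 and 660 CPM in subgroup 1 and 53.7 and 367 CPM in subgroup 2. The shared receptor Il6st was at 129.8 and 91.05 CPM (-0.51), Jak1 at 233 and 178.5 CPM (-0.38) and the feedback inhibitor Socs3 at 73.75 and 61.65 CPM (-0.25). Of 12 genes listed as STAT3 targets, Cebpb (55.2 and 225.5 CPM) and Timp1 (81.2 and 286 CPM) were at least 2-fold higher and Osmr lower, with a median of 0.02. Hif1a was at 830 and 461 CPM (-0.85) and Ccnd1 at 242 and 187 CPM (-0.37).

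At a mean of at least 100 CPM, the genes with the highest ratios besides Il11 were Apod, Esr1, Gal, Hist1h2ap, Cryab, Inhba, Penk, Tmsb4x and Cd9. They differed in how many cells carried them. Esr1, the estrogen receptor alpha, was at 16.9 CPM in control and 223.5 CPM in mutant members (3.65), above 0 in 10.6% (6.4% to 16.2%) and 60.8% (49.1% to 71.6%). Cd9, a membrane tetraspanin, was at 267 and 1096 CPM (2.04), with quartiles over cells of 113 to 412 CPM in control members and 599 to 1569 CPM in mutant members. Inhba, which encodes the activin subunit beta A, was at 97.7 and 593 CPM (2.59), and 3 cells held 53% of its control transcripts. Penk, the opioid precursor proenkephalin, was at 45.2 and 201 CPM (2.13). Apod, Gal, Hist1h2ap, Cryab and Tmsb4x had from 52.1% to 93% of their mutant transcripts in 3 cells. Without subgroup 3 the ratio of Tmsb4x went from 2.04 to 0.69, that of Apod from 3.93 to 2.95 and that of Dcn from 1.36 to 0.19. Hist1h2ap, a histone gene of dividing cells, went from 2.95 to -1.77 when unmarked cells above 0 for Sox9 and Col2a1 were included. The ratio of Gal was 0.78 without the 3 richest cells of each gene. Those of Esr1, Il11, Cd9 and Inhba stayed between 1.77 and 3.89 under every alternative.

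Several of these genes had ratios in the same direction in other cells of the same libraries. Unmarked cells were summed whatever their type, and their mixture was not matched between the libraries. They held 512 control and 3 mutant cells above 0 for Sox9 and Col2a1, for example. What part this mixture has in their ratios was not tested. Cd9 had ratios of 2.04 in articular-type and 2.92 in unmarked cells. Cebpb had 2.07 and 3.85, and Penk 2.89 and 3.16. Il11 had 2.07 in articular-type cells and 2.29 in unmarked cells. Esr1 stood at 1.95 and 0.99, and Inhba at 0.44 and 0.99. Whether the members differ from the other classes in these ratios was not tested, since each class comes from the same 2 libraries.

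**Figure D5:**
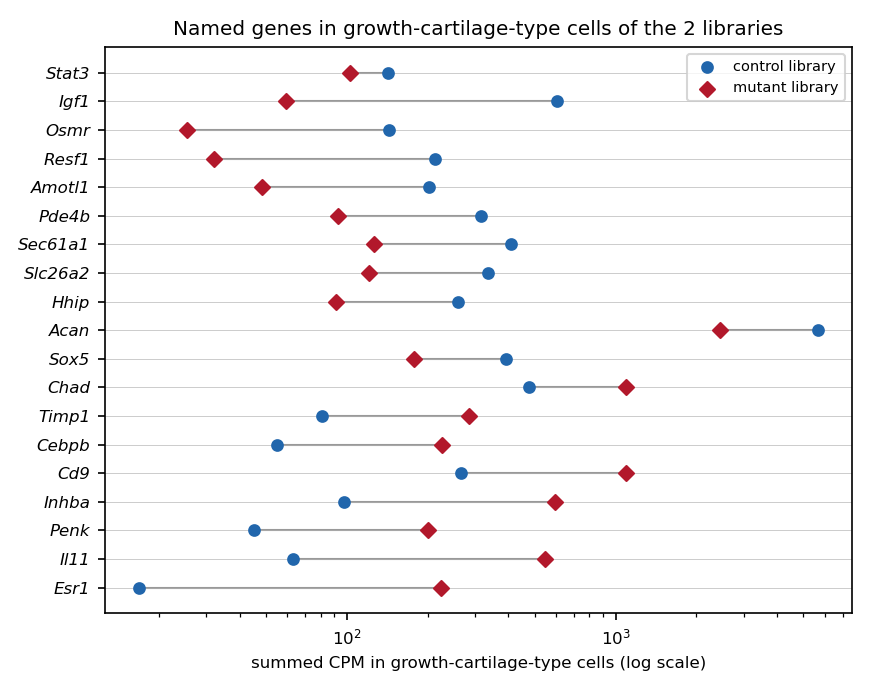
Summed CPM on a log scale (x axis) of 19 named genes (y axis) in growth-cartilage-type cells of the control (blue circles) and mutant (red diamonds) library, 1 library per genotype. Igf1 sits at 607 CPM (control) and 59.6 CPM (mutant), and Il11 at 63.2 and 545 CPM.

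At a mean of at least 100 CPM, the lowest ratios after Igf1 were those of Resf1, Prg4, Amotl1, Smoc1, Pde4b, Snx18, Cpm, Sec61a1 and Mt2. Sec61a1, the channel through which secreted proteins enter the endoplasmic reticulum, was at 408 CPM in control and 127 CPM in mutant members (-1.68), above 0 in 93.5% and 65.8%. None of the 15 other secretory pathway genes was 2-fold apart, and their median was -0.22. Pde4b, which breaks down cyclic AMP, was at 317 and 92.7 CPM (-1.76), and Amotl1, an angiomotin of the Hippo pathway, at 202 and 48.3 CPM (-2.04). Mt2, a metallothionein, was at 933 and 295 CPM (-1.66) in members, but at 224.5 and 265 CPM in articular-type cells. Prg4 rested on 3 cells in each library. Its ratio of -2.27 became 0.91 without the 3 richest cells, 0.60 when cells were thinned before the rule and -5.99 without subgroup 3.

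Most cartilage matrix genes differed by less than 2-fold between the genotypes. Of 17 compared, Acan was at least 2-fold lower and Chad at least 2-fold higher, and the median log2 ratio was -0.07, which became 0.08 under median-of-ratios scaling. Acan (chromosome 7, from 79053483 to 79115099) was at 5664 and 2451 CPM (-1.21). It was above 0 in all 170 control members and in 64 of 79 mutant members, and the medians over cells were 5479 and 2074 CPM. The Acan ratio was -1.09 without the members that had few matrix genes, and -1.29 and -1.61 in articular-type cells and in cells with 2 or more hypertrophic genes. One Acan allele of the mutant mice carries the Cre insertion, and its part in this value was not tested. Col9a1 was at 3915 and 3048 CPM (-0.36), Snorc at 6419 and 5924 CPM (-0.12) and Hapln1 at 2958 and 2816 CPM (-0.07). Chad was at 478 and 1095 CPM (1.19).

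Genes that build and sulfate the glycosaminoglycan chains of aggrecan were read as a group. Of 8 compared, 3 were at least 2-fold lower and 0 higher, with a median of -0.71. Over all genes compared 6.48% were at least 2-fold lower. Slc26a2 was at 336 and 121 CPM (-1.47), the xylose kinase Fam20b at 104 and 43 CPM (-1.26) and the chain-initiating enzyme Csgalnact1 at 144 and 65.9 CPM (-1.12). Papss2, which makes the sulfate donor, was at 742 and 398 CPM (-0.90). Of these 3, Slc26a2 alone stayed at least 2-fold lower under every alternative. When cells were thinned before the rule, Csgalnact1 reversed to 0.58 and Fam20b was at -0.41. Csgalnact1 was at -0.97 under median-of-ratios scaling, and Fam20b at -0.97 in members with none of the 5 hypertrophic genes. Of 5 chondrogenic factors outside the rule, Sox5 (390.2 and 178 CPM, -1.13) and the ubiquitin ligase Wwp2 (472 and 200.1 CPM, -1.23) were at least 2-fold lower, and the median was -0.65. Under median-of-ratios scaling Sox5 was at -0.99. Sox6 was at 80.7 and 95.2 CPM (0.24), and Sox9, which helped to choose the cells, at 1120 and 1165 CPM. Of 4 genes of the hedgehog and PTHrP loop compared, the hedgehog inhibitor Hhip was lower (260 and 91.5 CPM, -1.50). Ptch1 was at 162 and 106 CPM (-0.60). Among 6 growth factor receptors, 0 were 2-fold apart, with a median of -0.42 and Fgfr3 at 175 and 125 CPM (-0.48).

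In each of the remaining groups at most 2 genes passed 2-fold. Over all genes compared 4.51% were at least 2-fold higher and 6.48% lower, so counts this small are not read as results about a group. Of 8 matrix proteases and inhibitors, the inhibitors Timp1 (1.80) and Timp3 (107 and 308 CPM, 1.52) were higher and 0 lower, with a median of 0.30. Of 13 glycolysis and hypoxia genes, Hk2 was lower (-1.27), with a median of -0.18. Of 5 maturation genes, Runx3 (123 and 60.4 CPM, -1.02, and -0.87 under median-of-ratios scaling) was lower and Runx2 (93.8 and 94.05 CPM) did not differ by 2-fold. Of 18 dissociation stress genes, Ier3 (1.38) was higher and Atf3 (-1.18) lower, and the median was -0.08. Of 2 epithelial genes compared, Epcam, a cell adhesion protein of epithelia, was at 17.1 and 90.1 CPM (2.34) and the other, Sfn, at 59.3 and 114 CPM (0.93). Of 7 superficial and articular genes, Dcn (1.36) was higher and Prg4 lower, with a median of -0.24. Of 3 antagonists and binding proteins of growth factors 0 passed 2-fold, with a median of 0.69. Of 4 resting zone genes 0 passed 2-fold, and Pthlh was at 55 and 47.1 CPM, from few cells.

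Proliferation was measured as the summed CPM of S-phase and G2/M genes. The 43 S-phase genes summed to 442 CPM in control and 505 CPM in mutant members (log2 ratio 0.19). The 54 G2/M genes summed to 1347 and 1162 CPM (-0.21). Most of these genes were sparse, and 1 S-phase and 7 G2/M genes reached the level needed for comparison, of which 0 passed 2-fold. Mki67, a marker of cycling cells, was above 0 in 15 of 170 control members (8.82%, 5.02% to 14.1%) and 2 of 79 mutant members (2.53%, 0.308% to 8.85%). The sums depended on the mark. With unmarked cells above 0 for Sox9 and Col2a1 included, which in the control library all carry globin transcripts, the ratios were -0.91 and -1.09. Among the 2705 control cells above 0 for neither gene, Mki67 was above 0 in 73.9%. What part free RNA has in the Mki67 shares of the members was not tested.

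Both gene sets named by the study were read in the members. Of its proliferative set, 9 genes were compared, with a median of -0.48. Sox5 and Prg4 were at least 2-fold lower and 0 higher. The Prg4 call was not stable, with a ratio of 0.91 without the 3 richest cells. Sox5 stayed lower under every alternative, between -1.35 and -0.99, and fell just short of 2-fold under median-of-ratios scaling. The median of the set lay between -0.54 and -0.16 under the alternatives, and that of all genes compared was -0.14. Fn1 was at 3474 and 2412 CPM (-0.53) and Rps25 at 1635 and 1826 CPM (0.16). Of its hypertrophic set, Ihh, Col10a1 and Mef2c belong to the rule, and 2 of the remaining genes reached the level for comparison. They were Adk (85.1 and 124 CPM, 0.53) and Col1a1 (148 and 145 CPM, -0.03). Col1a1 was held by few cells in both libraries.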

How the data were processed

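Libraries were made with the 10x Genomics 3′ chemistry, with 1 pool of mice per genotype. In Partek Flow, the authors aligned reads to mm10 with STAR 2.7.3a, collapsed duplicate UMIs and counted them on Gencode genes. Barcodes were kept by a knee plot, and SoupX was used against ambient RNA. Gene values were deposited on a log2 scale, as log2(CPM + 1) of each cell, which the authors made from ambient-corrected counts. Each cell's deposited total is an estimated count of UMIs after that correction, and need not be whole. Mitochondrial and ribosomal shares are deposited as percent of the UMIs of a cell. The deposited number of expressed genes, treated as a score, equalled the gene columns above 0. The mark on selected cells is the authors' own.

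Values were converted back to estimated UMIs, of which 74.8% (control) and 97.3% (mutant) lay within 0.1 of a whole number, then summed per class and scaled to CPM. Ratios were log2((CPM + 1)/(CPM + 1)). With 1 library per genotype no model was fitted, and a gene was called at a 2-fold ratio. Genes were compared with a mean of at least 50 CPM over both groups and above 0 in at least 10% of the cells of either, leaving out the 25 genes that mark or choose cells. The genes named were those of the rule, members of the gene lists, and the 10 highest and 10 lowest ratios of each comparison at a mean of at least 100 CPM. A gene with over 50% of its UMIs in 3 cells of a library was named as resting on few cells. The members, gene lists and tests were chosen with earlier results of these data known. Subgroups came from k-means with 3 centres on 10 principal components, and clusters of marked cells from 6 centres on 30 components. Scrublet called 74 control and 2 mutant cells doublets, of which 3 and 0 were members, and the mutant rate (0.149%) is too low to say that the caller worked. Coordinates are those of GRCm38 in Gencode, whose release differs from that used for counting. Python 3.11.15, numpy 2.4.6, scipy 1.17.1, scikit-learn 1.9.0 and scanpy 1.11.5 were used, and the ratio code was tested on simulated data. Alternatives changed the scaling, the weighting of cells, the pseudocount, the filter, the depth and the choice of cells.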

Additional observations from a re-analysis of the deposited data

Results flagged for a closer look

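Ly6a, a surface marker of fibroblasts and progenitors, moved in opposite directions in growth-cartilage-type and articular-type cells. In growth-cartilage-type cells its summed level was 29.7 CPM (control) and 74.8 CPM (mutant), which is 1.30 on the log2 scale, and in articular-type cells 38.1 and 12.4 CPM, which is -1.55. The difference between the classes was not tested. In the members 3 cells held 88.2% of the control and 73.9% of the mutant transcripts. With cells above 5% mitochondrial counts left out the ratio was 0.46, without members that had at most 6 cartilage matrix genes it was 0.74, and without the 3 richest cells it was 2.18.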

How the results depend on the processing

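No paired analysis was possible because each genotype is 1 library and no replicate numbers are shared. For the same reason no replicate was left out, and the pool of mice, the preparation of the library and the genotype cannot be told apart. Depth limits the sparse genes: most cell cycle genes and most genes of the hypertrophic set fell below the level for comparison.

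With median-of-ratios scaling 186 genes were higher and 108 lower in mutant members, against 121 and 174. Thinning cells to 2000 UMIs after the rule gave 201 higher and 311 lower genes, and thinning before it gave 266 lower genes, Stat3 at 0.15 (0.013 when thinned after the rule), the G2/M sum at -0.87, Csgalnact1 at 0.58 and Prg4 at 0.60. Leaving out the 3 richest cells of each gene gave 335 lower genes and Prg4 at 0.91. With no filter on low values 2293 genes were higher, 2312 lower and 1172 apart from articular-type cells in both libraries, and with a mean of at least 100 CPM 68, 76 and 57. The share difference was -16.4 points among cells of at least 3000 UMIs. With all cells above 0 for Sox9 and Col2a1 the S-phase sum was at -0.91, the G2/M sum at -1.09 and Hist1h2ap at -1.77. Hist1h2ap was at -0.040 in members with none of the 5 hypertrophic genes. The median of the hypertrophic set, from very few genes, was 0.25 as reported, 1.11 with none of the 5 hypertrophic genes and 0.93 without the richest cells. It was -0.47 without subgroup 3 and -0.57 without members that had at most 6 matrix genes, both alternatives chosen after seeing the data. The cause of these changes was not tested, apart from the filters, which change the number of genes compared.

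Of 42 single-gene ratios between the genotypes, 3 reversed under at least 1 alternative (Csgalnact1, Hist1h2ap and Prg4), and 28 stayed at least 2-fold in all. Of 40 ratios between growth-cartilage-type and articular-type cells, 0 reversed and 37 stayed at least 2-fold in all.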

Other observations

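In the control library 112 of the 512 unmarked cells above 0 for Sox9 and Col2a1 met the rule for growth-cartilage-type cells (21.9%, exact binomial 18.4% to 25.7%), at a median of 4294 UMIs over the 512 cells. In the mutant library 0 of 3 such cells met it, which at this number allows almost any share.

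The growth cartilage genes of the rule overlapped to different degrees in single members. Of the 38 control members with Matn1, 32 also had Epyc (84.2%), and of the 22 mutant members with Matn1, 15 had Epyc (68.2%). Of the 26 control members with Krt16, 5 had Matn1.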
